A study of Mus musculus with 8 samples.

Results

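The receptors for extracellular nucleotides and adenosine were examined as 9 genes, namely *P2rx1*, *P2rx4*, *P2rx7*, *P2ry1*, *P2ry2*, *P2ry14*, *Adora2a*, *Adora2b* and *Adora3*, chosen by symbol among the 24059 genes of the count files. RNA was sequenced from mast cells differentiated in vitro with IL-3 from the bone marrow of C57BL/6 mice (BMMCs). The cells were electroporated with Cas9-gRNA ribonucleoproteins (RNPs), either 4 samples with scrambled, non-targeting guides (genotype label Zc3h12a WT) or 4 samples with a mix of guides against *Zc3h12a*, the gene of the endoribonuclease Regnase-1 (label Zc3h12a KO). They were then cultured for a week and were not stimulated before RNA extraction. Differentiation had lasted at least 4 weeks. The labels give neither an age of the mice nor any further treatment, while the study's methods state an age range for its mast cell cultures. All samples share the electroporation and Cas9, each *Zc3h12a* RNP sample is an edited bulk population and not a clone, and by the study's design cells of the same 4 mice received both RNPs.

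ATP, ADP, UTP and nucleotide sugars leave stressed or activated cells and act on P2X receptors, which are ATP-gated cation channels, and on P2Y receptors, which couple to G proteins. Ecto-enzymes on the cell surface degrade ATP stepwise to adenosine, which acts on the adenosine receptors. In mast cells extracellular ATP evokes calcium entry and degranulation, and adenosine is a classical enhancer of degranulation that acts through the A3 receptor in rodents.

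Libraries held 19610240 to 33986762 counted reads (median 27030412), with 19610240 to 33986762 in the scrambled group and 23712029 to 28564062 in the *Zc3h12a* group. All 12 mast cell markers examined were detected in every sample and summed to 53855 to 66175 CPM (counts scaled to a common library size), led by *Cpa3*, the mast cell carboxypeptidase, at 26728 to 34240 CPM, while *Kit* was at 2432 to 3926 CPM. The neutrophil markers summed to at most 0.347 CPM, with the 4 that were in the files all under 1 CPM, and 7 of 12 macrophage markers were under 1 CPM in every sample, with *Cx3cr1* at 112 to 301 CPM making up most of that list's sum of 132 to 314 CPM. Megakaryocyte markers, listed because *P2rx1* and *P2ry1* are known from platelets, summed to 1788 to 2516 CPM through *Itga2b* (1261 to 2026 CPM) and *Gp1ba* (430 to 1042 CPM), while *Pf4* reached at most 2.9 CPM, *Gp9* 0.946 and *Gp1bb* 0.13. Basophil markers summed to 445 to 541 CPM through *Cd200r3*, with *Mcpt8* at 1.43 to 8.51 CPM, and eosinophil, lymphocyte, dendritic cell and erythroid markers summed to at most 4.18, 6.04, 13.9 and 4.09 CPM. *Zc3h12a* mRNA itself was at 34.8 ± 6.65 CPM (SD, n = 4) after scrambled RNP and 33.2 ± 5.91 CPM after *Zc3h12a* RNP, higher in 2 of the 4 pairs, so the mRNA level did not check the labels. A Cas9 cut need not lower the mRNA of its target, and editing was not measured in these files. The paper reports effective loss of Regnase-1 protein by Western blot in BMMCs given *Zc3h12a* RNPs, without saying that these were the sequenced samples.

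The first question was which of the receptors these mast cells expressed. Levels were compared between genes as TMM-normalized CPM per kilobase of exon, because a longer transcript gives more reads. *Adora3*, encoding the Gi-coupled A3 adenosine receptor, stood first with a median over the 8 samples of 99.9 CPM per kilobase, followed by *P2rx4*, an ATP-gated channel of the plasma membrane and of lysosomes, at 67.4. *Adora2b*, the low-affinity, Gs-coupled adenosine receptor, had a median of 39.5 CPM per kilobase, and *P2rx7*, the channel that opens at high ATP and activates the NLRP3 inflammasome, had 38.4. *P2rx1*, a rapidly desensitizing ATP-gated channel, was at 31.7 CPM per kilobase. *P2ry14*, the Gi-coupled receptor for UDP-glucose, had 15.2, *Adora2a*, the high-affinity, Gs-coupled adenosine receptor, had 11.1, and *P2ry1*, the Gq-coupled ADP receptor, had 8.85. *P2ry2*, the Gq-coupled receptor for ATP and UTP, was last at 0.15 CPM per kilobase.

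**Figure D1:**
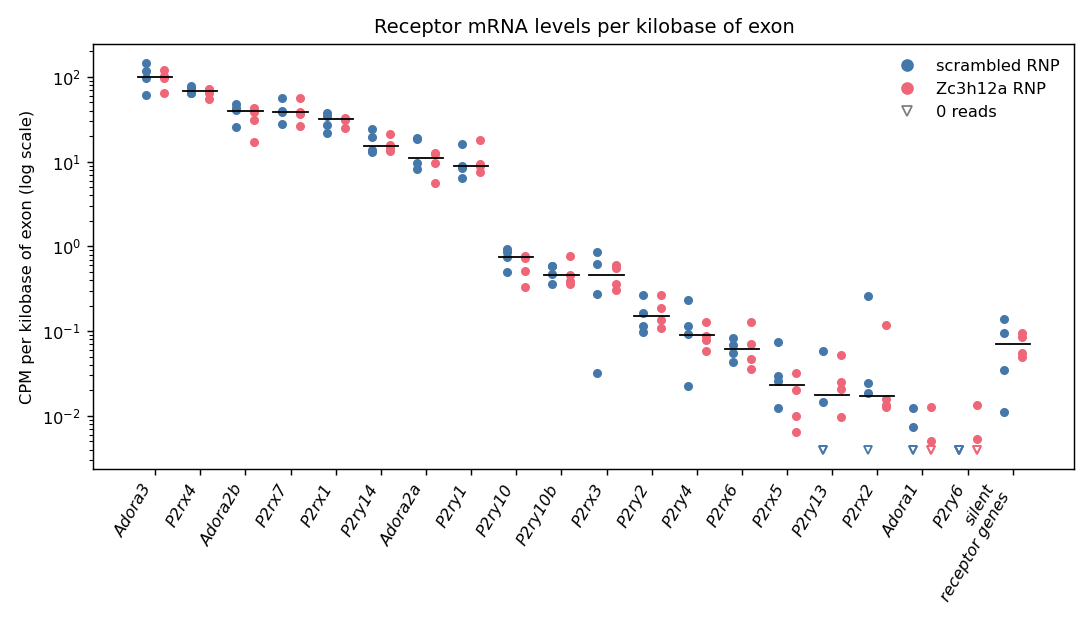
Levels of the 9 receptors and of 10 related receptor genes in CPM per kilobase of exon (log scale), with 1 point per sample (4 scrambled RNP in blue, 4 Zc3h12a RNP in red), a line at the median over all 8 samples and open triangles at the bottom for samples with 0 reads. The last column holds 242 silent pheromone and taste receptor genes as a sum. 8 of the 9 receptors lie at medians of 8.85 to 99.9, while P2ry2 at 0.15 lies among the related genes and close to the silent ones.

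Not all neighbours in this order could be separated. *Adora3* was above *P2rx4* in 6 of 8 samples, *Adora2b* above *P2rx7* in 4 of 8, *P2rx7* above *P2rx1* in 6 of 8, *P2ry14* above *Adora2a* in 6 of 8 and *Adora2a* above *P2ry1* in 4 of 8, and the ranges of each of these pairs overlapped. *P2rx4* was above *Adora2b*, *P2rx1* above *P2ry14*, and *P2ry1* above *P2ry2* in 8 of 8 samples. The range of *P2rx4* (54.9 to 78.4 CPM per kilobase) lay wholly above that of *Adora2b* (17.3 to 48.0), and that of *P2ry1* (6.4 to 17.8) wholly above that of *P2ry2* (0.0981 to 0.27). The ranges of *P2rx1* (22.0 to 37.1) and *P2ry14* (12.9 to 24.2) overlapped although their order held within each sample. When the longest transcript stood in for all exons, *Adora2b* and *P2rx7* exchanged the ranks 3 and 4, since *P2rx7* then had 75.4 CPM per kilobase, and the other 7 ranks were as before.

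Among 14339 tested genes with a known length, 98.0% had a lower median than *Adora3* and 97.1% a lower one than *P2rx4*. The shares were 94.6% for *Adora2b*, 94.4% for *P2rx7*, 93.2% for *P2rx1*, 85.2% for *P2ry14*, 80.2% for *Adora2a* and 75.8% for *P2ry1*. *P2ry2* exceeded 9.92% of them.

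*P2ry2* had 24 to 81 reads per sample. To see what a gene without known function in these cells gives, 242 pheromone receptor (*Vmn1r*, *Vmn2r*) and taste receptor (*Tas2r*) genes were summed. They had a median of 0.0706 CPM per kilobase, from 0.0112 in scrambled replicate 2 to 0.139 in scrambled replicate 4. *P2ry2* was 24.1 times this level in scrambled replicate 2, 0.822 times in scrambled replicate 4 and 1.41 to 3.84 times in the other 6 samples. In scrambled replicate 4, then, *P2ry2* was not above the level of silent genes, and the source of those reads was not tested.

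Of 11 further genes listed by symbol under these families, whatever their ligand, 10 were in the files and 4 passed the filter on low counts. None exceeded 5.38 CPM in any sample. *P2ry10b* had 2.15 to 4.67 CPM, *P2ry10* 1.04 to 2.98 CPM and *P2rx3*, a channel known from sensory neurons, 0.2 to 5.38 CPM. The *P2rx3* level followed the summed smell receptor genes over the 8 samples (r of log2 CPM 0.93), as 15.2% of all tested genes did at r above 0.9, and *P2ry4*, a UTP receptor, at 0.1 to 1.05 CPM did so at r = 0.80. *Adora1*, the Gi-coupled A1 adenosine receptor, had 0 to 2 reads per sample and *P2ry6*, the UDP receptor, had 0 to 2. *P2ry13*, an ADP receptor, had 0 to 6 reads, *P2rx5* 1 to 10, *P2rx6* 4 to 17 and *P2rx2* 0 to 20. The 9 receptors themselves had r from -0.66 (*P2rx1*) to 0.53 (*Adora2a*) with the smell receptor genes.

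In the genome (GRCm39, GENCODE), *P2rx7* (chr5:122781942-122830400) and *P2rx4* (chr5:122845541-122867803) lie in tandem on the + strand, 15.1 kb apart. *P2ry14* (chr3:59021276-59061134, - strand), *P2ry1* (chr3:60910159-60916403, + strand) and *Adora3* (chr3:105778174-105816242, + strand) share chromosome 3, and *Adora2b* (chr11:62139804-62157279) and *P2rx1* (chr11:72889875-72906026) lie on the + strand of chromosome 11. *Adora2a* is at chr10:75152560-75170628 on the + strand and *P2ry2* at chr7:100640649-100663957 on the - strand. Of the *P2ry1* exon bases, 21.8% overlap the antisense RNA *Gm37035*, which had 4 to 17 reads per sample against 782 to 2343 for *P2ry1*. *Adora3* shares 4.1% of its exon bases with *Tmigd3* on the same strand, which had 12 to 36 reads against 6934 to 13759. It shares 18.0% with the protein-coding *Gm53046* on the same strand, a symbol that has no entry in the count files. The strand setting of the counting is not given in the sources used here, so reads from the overlap with the antisense *Gm37035* could not be assigned. For *Tmigd3* and *Gm53046*, on the same strand as *Adora3*, no strand setting could separate the shared reads.

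Regnase-1 is known to cut mRNAs at short hairpins with a loop of pyrimidine, purine and pyrimidine in the 3′ untranslated region (3′UTR). The 3′UTR of the canonical GENCODE transcript of each receptor was therefore searched on the sense strand for a 3-base loop of this kind, in any of its 8 forms, between at least 5 Watson-Crick pairs. The matches are shown because they are the letters in these transcripts that resemble the known target form, with the loop in capitals. *P2rx7* held 1 in its 2985 bases (chr5:122820549-122820561, + strand), *P2ry2* held 1 in 6533 bases (chr7:100642360-100642372, - strand) and *Adora3* held 1 in 1031 bases (chr3:105816184-105816200, + strand), the last with a stem of 7 pairs.
P2rx7: aagacCAUgucuu
P2ry2: agggcUAUgcccu
Adora3: auacagaUACucuguau

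*P2rx1*, *P2rx4*, *P2ry1*, *P2ry14*, *Adora2a* and *Adora2b* had no match in 3′UTRs of 395 to 2117 bases. A match was present in 33.3% of the 9 receptors and in 26.5% of the 3′UTRs of 13071 tested genes, at 0.175 and 0.189 matches per kilobase, so the receptors were near the background. These matches are descriptions of letters, and binding or cutting was not measured.

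The second question was whether the *Zc3h12a* RNP altered the receptor mRNAs. A quasi-likelihood test (edgeR), blocked on replicate number, was run over the 14934 genes that passed the filter, and all 9 receptors were among them. Calls required a change of more than 0.5 on the log2 scale and a p of at most 0.05 after Benjamini-Hochberg adjustment. None of the 9 receptors was called higher or lower, against a background of 0.0% of genes called higher and 0.0% called lower. The lowest adjusted p of any gene was 0.0558, for *Nrgn*, and the lowest among the receptors was 0.512. An unadjusted p at or under 0.05 was reached by 2 receptors, *Adora2a* and *Adora2b*, and by 6.17% of all genes; among the 5519 genes with a mean of at least 30 CPM, to which 8 of the 9 receptors belong, 554 did so. In DESeq2 as an alternative, with 8 genes called higher and 50 lower, no receptor was called either. *Adora2a* lay near both limits there, with a log2 fold change of -0.45 and an adjusted p of 0.0721 (DESeq2 Wald test).

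**Figure D2:**
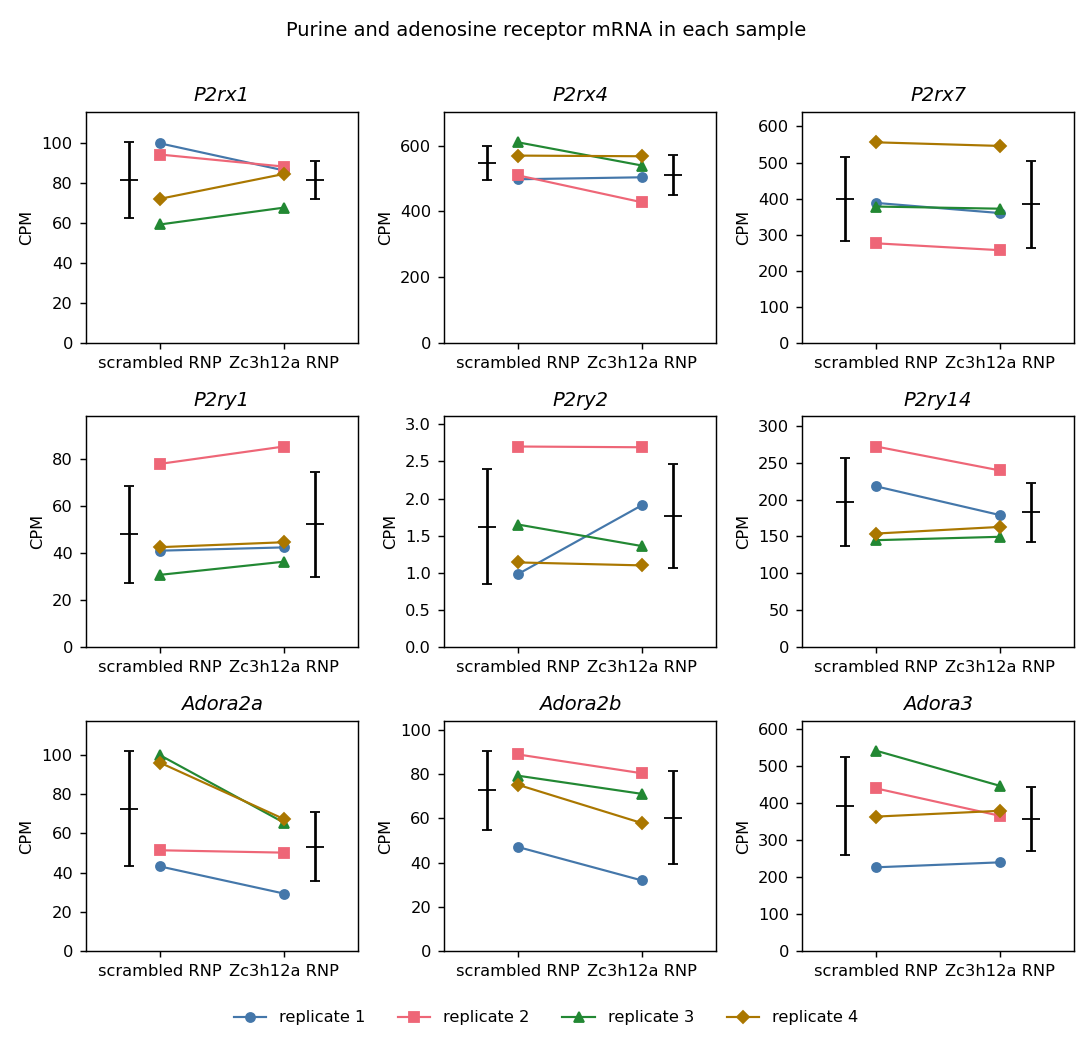
TMM-normalized CPM of each of the 9 receptors in the 8 samples, with a panel per gene (y axis from 0). Lines join the scrambled and Zc3h12a RNP samples of a replicate number (colour and marker), and black bars beside them give the group mean ± SD (n = 4). In every panel the ranges of the groups overlap, and lines of different replicate numbers often lie further apart than the ends of 1 line.

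The lowest p-values among the receptors were those of *Adora2a* and *Adora2b*. *Adora2a* was at 43.2, 51.4, 99.8 and 96.0 CPM in scrambled replicates 1 to 4 and at 29.4, 50.2, 65.5 and 67.3 CPM in the same replicates after *Zc3h12a* RNP. It was lower after *Zc3h12a* RNP in all 4 pairs, by more than 0.5 on the log2 scale in 3 of them (-0.55, -0.61 and -0.51) and hardly at all in pair 2 (-0.03), while the ranges of the groups overlapped. Group means were 72.6 ± 29.4 CPM (SD, n = 4) and 53.1 ± 17.5 CPM. The edgeR log2 fold change was -0.43 (SE 0.11, 95% interval -0.69 to -0.17, unadjusted p = 0.00527, adjusted p = 0.512), and 1.01% of genes had a smaller p.

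*Adora2b* was at 47.1, 88.9, 79.3 and 75.2 CPM in scrambled replicates 1 to 4 and at 32.0, 80.4, 71.1 and 57.9 CPM after *Zc3h12a* RNP. Again every pair had the lower value after *Zc3h12a* RNP, by -0.56, -0.15, -0.16 and -0.38 on the log2 scale, and the ranges overlapped. Means were 72.6 ± 17.9 and 60.3 ± 21.0 CPM (SD, n = 4), and the edgeR log2 fold change was -0.31 (SE 0.095, 95% interval -0.53 to -0.09, unadjusted p = 0.013, adjusted p = 0.656). Without replicate number 1 it was -0.18.

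*Adora3* did not share this direction in all pairs. Its levels were 227, 440.2, 542 and 364 CPM after scrambled RNP and 240.4, 366, 447 and 379.7 CPM after *Zc3h12a* RNP, slightly higher in pairs 1 and 4 (0.08 and 0.06) and lower in pairs 2 and 3 (-0.27 and -0.28). Its log2 fold change was -0.10 with a 95% interval of -0.33 to 0.13 (edgeR, adjusted p = 0.96).

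**Figure D3:**
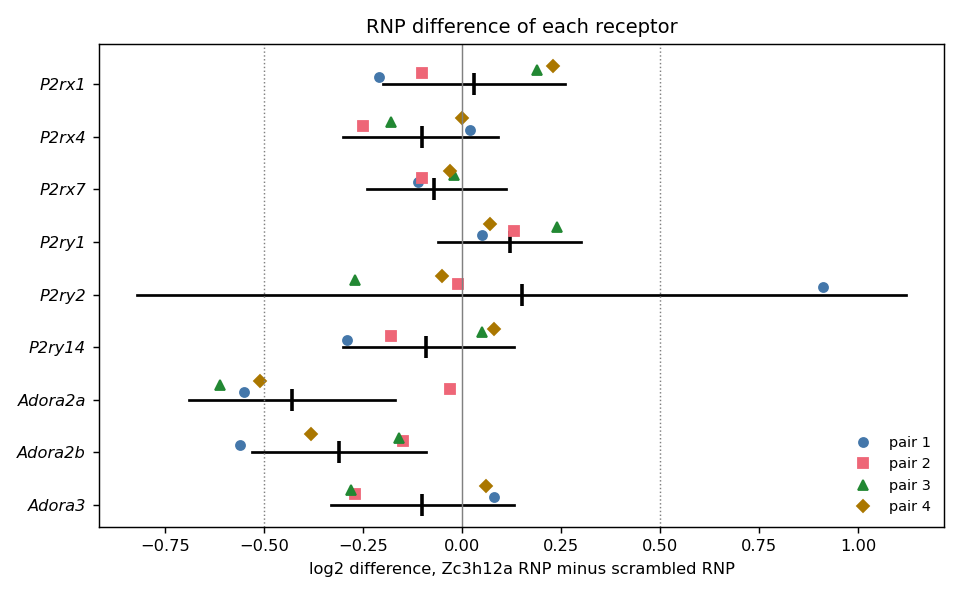
Log2 difference of each receptor between Zc3h12a and scrambled RNP, with the edgeR estimate as a black tick, its 95% interval as a black line, and the differences of the 4 pairs as coloured markers. Dotted lines stand at -0.5 and 0.5. Adora2a and Adora2b have all 4 pairs and the whole interval below 0, and the interval of P2ry2 runs from -0.82 to 1.12.

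Among the ATP-gated channels, *P2rx7* had the smallest pair differences. It was at 388, 276, 378 and 556 CPM in scrambled replicates 1 to 4 and at 359.9, 257, 372 and 546 CPM after *Zc3h12a* RNP. The value was lower in all 4 pairs, by -0.11, -0.10, -0.02 and -0.03 on the log2 scale. The edgeR log2 fold change of -0.07 had a 95% interval of -0.24 to 0.11 (adjusted p = 0.96), and a refit without replicate number 2, with its own filter and scaling, gave 0.0089 although the other 3 pairs had lower values. *P2rx4* was at 498, 509.9, 610.4 and 570 CPM after scrambled RNP and 504, 428, 539.8 and 568 CPM after *Zc3h12a* RNP, a log2 fold change of -0.10 (95% interval -0.30 to 0.09). *P2rx1* was at 99.6, 94.0, 59.1 and 71.9 CPM and at 86.1, 88.0, 67.5 and 84.3 CPM in the same order, lower in pairs 1 and 2 and higher in pairs 3 and 4, with a log2 fold change of 0.03 (95% interval -0.20 to 0.26).

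Of the P2Y receptors, *P2ry1* was the only member higher after *Zc3h12a* RNP in all 4 pairs. Scrambled replicates 1 to 4 had 41.1, 78.1, 30.8 and 42.6 CPM and *Zc3h12a* replicates had 42.5, 85.5, 36.4 and 44.7 CPM. The pair differences of 0.05, 0.13, 0.24 and 0.07 on the log2 scale gave a log2 fold change of 0.12 (SE 0.077, 95% interval -0.06 to 0.30, edgeR adjusted p = 0.96). Without replicate number 1 it was 0.19 and without number 3 it was 0.03. *P2ry14* was at 218, 272, 145 and 154 CPM and at 179, 239.5, 149.6 and 163 CPM, with a log2 fold change of -0.09 (95% interval -0.30 to 0.13). *P2ry2* was at 0.983, 2.7, 1.65 and 1.14 CPM and at 1.91, 2.69, 1.36 and 1.1 CPM, and its interval of -0.82 to 1.12 was the widest of the 9, so that with 24 to 81 reads per sample it held differences past 0.5 in either direction.

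Lower values in all 4 pairs were seen for 3 of the 9 receptors and for 8.54% of all genes, and higher values in all 4 pairs for 1 of the 9 and 4.98% of all genes. Groups whose ranges did not overlap were seen for 0 of the 9, against 0.663% of all genes with lower and 0.261% with higher values. The shares of all genes include genes of low count and were not taken at the level of the receptors, so they are no matched background. The exact sign-flip test over the 4 pairs, 2-sided, can give no p below 0.125, which *P2rx7*, *P2ry1*, *Adora2a* and *Adora2b* reached by 2 of 16 sign assignments. The median log2 fold change of the 9 was -0.09, with 6 of them negative, and that of all tested genes was 0.038, with 42.2% negative. The median of all genes moved with the setting. It was -0.011 over the 11903 genes with at least 10 counts in every sample and 0.018 with DESeq2. In both settings 6 of the 9 receptors were negative. In a refit without replicate number 2, with its own filter and scaling, only 2 of the 9 were negative. *P2rx4*, *P2rx7*, *P2ry14* and *Adora3* were then slightly positive, at 0.0071 to 0.018. Such a refit estimate is not the mean of the remaining pair differences. In these bulk samples a smaller number of cells with a receptor cannot be told apart from less of its mRNA per cell.

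More receptors differed by replicate number than by RNP, also when the adjusted p alone is used without a limit on size. For the RNP the lowest adjusted p among the receptors was 0.512 (edgeR). The test of the replicate number spans 4 levels and that of the RNP compares the groups, so the counts are not on equal terms. With edgeR's F test of the replicate number, a comparison chosen after the values were seen, 6 of the 9 receptors differed between numbers at an adjusted p at or under 0.05, against 28.0% of all 14934 genes; among the 5519 genes of at least 30 CPM the share was 47.8%, and of the receptors at that level 6 of 8. *P2ry1* was highest in replicate number 2, with a mean of 81.8 CPM over its 2 samples against 33.6 CPM in number 3 (2.44-fold, adjusted p = 0.00166). *P2rx7* was highest in number 4 at 551 CPM and lowest in number 2 at 266 CPM (2.07-fold, adjusted p = 0.00344).

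The 3 adenosine receptors were each lowest in replicate number 1. *Adora2a* ran from 35.7 CPM there to 80.9 CPM in number 3 (2.26-fold, adjusted p = 0.00509), *Adora2b* from 38.9 CPM to 84.6 CPM in number 2 (2.18-fold, adjusted p = 0.00534) and *Adora3* from 234 CPM to 492 CPM in number 3 (2.11-fold, adjusted p = 0.00692). *P2ry14* ran from 147 CPM in number 3 to 255 CPM in number 2 (1.73-fold, adjusted p = 0.0117). *P2rx1* (1.47-fold, adjusted p = 0.0581), *P2rx4* (1.23-fold, adjusted p = 0.212) and *P2ry2* (2.31-fold, adjusted p = 0.391) did not pass. This count rests on single replicate numbers: it was 2 of 9 without number 1 (*P2rx7* and *P2ry1*), 3 without number 2 (*Adora2a*, *Adora2b* and *Adora3*), 4 without number 3 and 7 without number 4. The share of all tested genes in the same settings was 9.62%, 16.1%, 9.97% and 19.3%, against 28.0% with all numbers. It was thus lower in each setting, also without number 4, where the count of receptors rose. By the study's design the numbers may stand for mice, but the labels do not say so, and mouse, culture and library cannot be told apart.

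**Figure D4:**
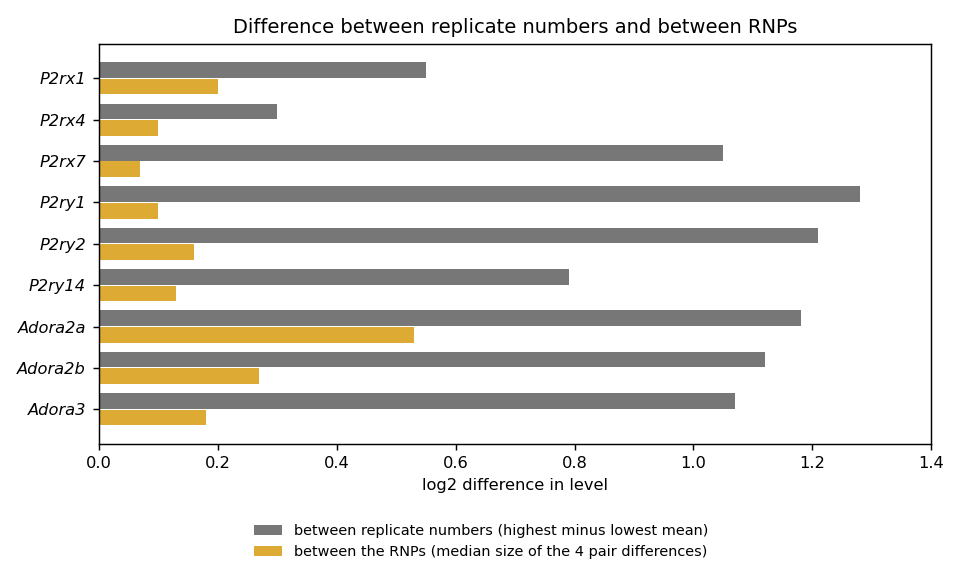
Size of the differences of each receptor on the log2 scale, with grey bars for the highest minus the lowest of the 4 replicate-number means (2 samples each) and yellow bars for the median size of the 4 pair differences between the RNPs. Grey bars span 0.30 (P2rx4) to 1.28 (P2ry1) and yellow bars 0.07 (P2rx7) to 0.53 (Adora2a), and since a spread over 4 means is not the same quantity as a median difference, the bars are a description.

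Likeness of the receptors over the 8 samples was given as Pearson's r of log2 CPM; the points are 4 pairs that share a replicate number, so r is a description. *Adora2b* and *Adora3* had r = 0.83, *Adora2a* and *Adora3* 0.75, and *Adora2a* and *Adora2b* 0.70. *P2ry1* and *P2ry14*, both G protein-coupled nucleotide receptors, had r = 0.86, and *P2rx1* and *P2ry14* had 0.82. The tandem genes *P2rx4* and *P2rx7* had r = 0.70. *P2ry1* and *P2ry2*, both P2Y receptors, had 0.72. Between an adenosine receptor and a nucleotide receptor the highest value was 0.69, for *Adora2a* and *P2rx4*, just under the lowest among the adenosine receptors. Negative values were also large, such as -0.69, -0.76 and -0.76 for *P2rx4* with *P2rx1*, *P2ry1* and *P2ry14*, and -0.74 for *P2rx1* with *Adora2a*. Whether the receptors form separate sets was not tested. The lowest value was between *P2rx7* and *P2ry2* at -0.85, the latter at the low level described above.

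**Figure D5:**
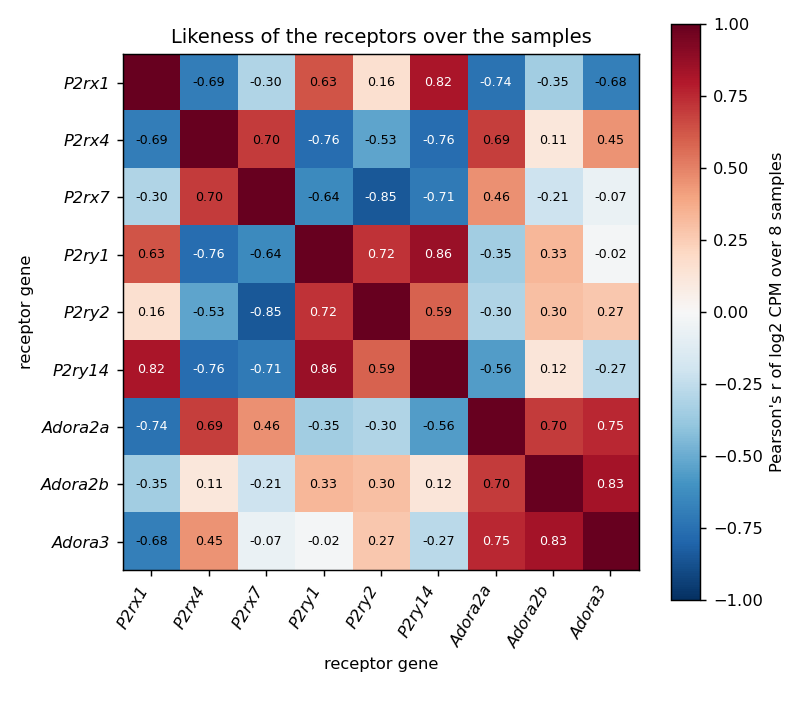
Pearson's r of log2 CPM over the 8 samples for each pair of the 9 receptors (red positive, blue negative, the value in each cell). Values run from -0.85 (P2rx7 with P2ry2) to 0.86 (P2ry1 with P2ry14), with 0.70 to 0.83 among the 3 adenosine receptors and 0.69 for Adora2a with P2rx4.

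The genes most like each receptor over the 8 samples were sought among 12648 genes with a mean of at least 1 CPM. For *Adora2b* they were *Id2*, an inhibitor of helix-loop-helix transcription factors (r = 0.993), and *Metrnl* (r = 0.965). *Adora3* was most like *Cdkn1a*, the p21 cell cycle inhibitor (r = 0.97), and the chemokine *Ccl4* (r = 0.969), and *Adora2a* most like *Vegfa*, the vascular growth factor (r = 0.972), and the adaptor *Blnk* (r = 0.967). For *P2rx7* the genes were *Fbxl21* (r = 0.989) and *Dennd11* (r = 0.988), for *P2rx4* *Vegfb* (r = 0.969) and *Wdr89* (r = 0.966), and for *P2rx1* *Zkscan6* (r = 0.985) and *Tirap* (r = 0.982). *P2ry1* was most like *Smurf2* (r = 0.989) and *Zfp142* (r = 0.986), *P2ry14* most like *Rbm7* (r = 0.994) and *Fam76a* (r = 0.991), and *P2ry2* most like *Ccdc88c* (r = 0.972) and *Ptpn12* (r = 0.959). The best of 12648 values over 8 samples is high for nearly any gene, and the pairs above share the replicate structure.

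The other genes of purinergic signalling were taken as lists. Of 12 ecto-enzymes, 9 were tested and 0 were called, with a median log2 fold change of 0.06. *Entpd1* (CD39), which degrades ATP and ADP, was the most abundant of the list at 82.2 ± 13.4 CPM (SD, n = 4) after scrambled RNP and 67.7 ± 9.9 CPM after *Zc3h12a* RNP (log2 fold change -0.28, edgeR adjusted p = 0.844), lower in 3 of 4 pairs. *Nt5e* (CD73), which forms adenosine from AMP, was low at 0.233 to 3.05 CPM, and its level followed the smell receptor genes (r = 0.95), as did that of *Enpp3* (r = 0.95). *Ada*, which deaminates adenosine, was at 17.1 ± 3.47 and 17.6 ± 2.19 CPM.

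Of 14 genes of nucleotide release and transport, 12 were tested and 0 were called (median log2 fold change 0.03). *Adk*, the kinase that removes intracellular adenosine, was at 186 ± 10.1 and 172 ± 6.99 CPM (SD, n = 4), the equilibrative nucleoside transporter *Slc29a1* at 37.2 to 65.4 CPM over all samples, the vesicular nucleotide transporter *Slc17a9* at 21.9 ± 5.7 and 20.9 ± 1.41 CPM, and the ATP release channel *Panx1* at 2.05 to 2.77 CPM in all samples.

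Of 24 G proteins and effectors, 22 were tested and 0 were called (median log2 fold change 0.0, range -0.33 to 0.34), while 9 of the 22 differed between replicate numbers, beside 28.0% of all tested genes and 47.8% of those of at least 30 CPM. *Gnas*, the Gs subunit to which the *Adora2a* and *Adora2b* products couple, was at 815 ± 145 and 776 ± 52.2 CPM (SD, n = 4) and *Gnai2*, a Gi subunit, at 737 ± 112 and 678 ± 101 CPM. Of the Gq class, *Gna15* (18.7 to 27.9 CPM) and *Gna11* (12.7 to 30.4 CPM) were expressed, whereas *Gnaq* had 0.367 to 3.52 CPM and followed the smell receptor genes (r = 0.93). *Pik3cg*, the G protein-activated phosphoinositide 3-kinase that adenosine engages in mast cells, was at 196 ± 10.9 and 215 ± 29.9 CPM.

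Of 8 inflammasome genes downstream of *P2rx7*, 7 were in the files and tested and 0 were called (median log2 fold change -0.02). *Nek7*, the kinase that binds NLRP3, was the one with an unadjusted p at or under 0.05, at 433 ± 71.6 and 382 ± 71.6 CPM (SD, n = 4), lower in 4 of 4 pairs (edgeR log2 fold change -0.18, SE 0.078, unadjusted p = 0.0484, adjusted p = 0.796). *Nlrp3* was at 439 ± 178 and 398 ± 141 CPM and differed between replicate numbers (adjusted p = 0.00318). *Pycard*, *Casp1* and *Gsdmd* were at 20.7 to 33.1, 21.2 to 33.8 and 9.5 to 15.4 CPM, and *Il1b* was at 1.18 to 7.53 CPM in these resting cells. The median log2 fold change of all tested genes was 0.038.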

How the data were processed

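The authors prepared poly(A) libraries, sequenced them as paired ends, mapped the reads with HISAT2 2.2.1 (GRCm39), used featureCounts 2.0.1 to count reads per gene and deposited these raw counts, 1 file per sample; FastQC 0.11.9 is named for read quality. The strand setting and the treatment of reads with several matches are not given in the sources used here. The study's methods also mention removeBatchEffect; what was deposited is uncorrected whole-number counts.

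The model held replicate number and RNP and was fitted with edgeR 4.0.16 (R 4.3.3) after filterByExpr and TMM scaling. Calls needed more than 0.5 on the log2 scale and an adjusted p of at most 0.05. CPM are TMM-normalized, and pair differences used log2 CPM with a prior count of 2. Intervals are 95% from the fit. Exon lengths came from GENCODE for GRCm39, in which 22497 symbols matched directly and 8 by an older symbol. This annotation is not the release that the study names, so these lengths may include exons in which no reads were counted. Most smell receptor symbols did not, so these 803 genes were summed without length and the 242 pheromone and taste receptors were added after the data were seen. DESeq2 1.42.0 and limma 3.58.1 were alternatives, and Python 3.11.15 with matplotlib 3.10.9 drew the figures. The edgeR step was tested on simulated data with known 2-fold changes and no difference between replicate numbers. That test does not cover smaller changes such as those of the receptors.

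The pairing follows the study's design. Samples sharing a number deviated from their groups with r of 0.041 to 0.624 over all tested genes (other pairs of samples up to 0.398) and of 0.717 to 0.756 over 9668 genes with a mean log2 CPM above 2 (others up to 0.137). All samples of a group differed beyond sampling noise (chi-square over its degrees of freedom at least 58.2).

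The 9 receptors and the gene lists were chosen with earlier results of these data known. Named are all 9, the further receptors, the called or lowest-p genes of each list with abundant or textbook members chosen after their values were seen, and the 2 genes most like each receptor. Where nothing says that samples are separate animals, p-values measure only the spread between these samples.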

Additional observations from a re-analysis of the deposited data

Results flagged for a closer look

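*P2ry1* in *Zc3h12a* RNP replicate 2 stood apart from its group, at 85.5 CPM against 36.4 to 44.7 CPM in the other 3 replicates. The gap to the nearest sample was 0.831 of the group's range, just above Dixon's 95% limit for 4 samples. The scrambled sample of the same replicate number was also the highest of its group. In all, 18 groups were examined and 0.9 would be expected to pass by chance.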

How the results depend on the processing

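No receptor was called under any alternative. Over all genes, the counts called higher and lower were 0 and 0 in the main analysis, 8 and 50 with DESeq2, 34 and 79 with the replicate effect removed before limma, and 9 and 31 without a filter on low counts. Called lower were 1 with limma, 1 with DESeq2 size factors and 3 with at least 10 counts in every sample. Without the replicate block 0 genes were called, with 104 genes at an unadjusted p at or under 0.05 against 922 with it, and the block changed no call of a receptor. Leaving out a replicate gave 0 to 80 called higher and 0 to 57 lower, both highest without replicate number 2. The adjusted p of *Adora2a* ranged from 0.0315 to 1 and of *Adora2b* from 0.0391 to 1, lowest with the replicate effect removed before limma, where the log2 fold change was short of 0.5. That fit does not account for the replicate terms already removed, so its p-values come out too small. It had 2845 genes at an unadjusted p at or under 0.05, against 922 in the main analysis. Leaving out a replicate turned the direction of 6 log2 fold changes, which ranged from -0.08 (without number 3; -0.039 without number 4) to 0.15 for *P2rx1*, from -0.14 to 0.0071 (without number 2) for *P2rx4*, from -0.13 to 0.0089 (without number 2) for *P2rx7*, from -0.07 (without number 1) to 0.27 for *P2ry2*, from -0.18 to 0.025 (without number 1; 0.0078 without number 2) for *P2ry14* and from -0.15 to 0.018 (without number 2) for *Adora3*. Each of these refits had its own filter and scaling, so its estimate is not the mean of the remaining pair differences. What turned the directions was not tested. The others kept their direction, *Adora2a* from -0.50 to -0.34, *Adora2b* from -0.41 to -0.18 (without number 1) and *P2ry1* from 0.03 (without number 3) to 0.19. For the replicate numbers, alternatives chosen after seeing the data gave 2364 genes with DESeq2 size factors against 4181, and leaving out a number gave 1443 to 2878 genes and 2 to 7 receptors. Between samples, silent genes differed 4.07-fold for smell receptors and 12.4-fold for pheromone and taste receptors. Depth limits *P2ry2* most, with 24 to 81 reads per sample.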
